A study of Rattus norvegicus with 9 samples.

Results

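The rat genes that encode histones, the proteins that package DNA into nucleosomes, were examined in H9c2(2-1) cells, a myoblast line from embryonic rat heart. Members were all protein-coding genes whose RefSeq symbol begins with a histone prefix (Hist1h to Hist4h, H1f, H2a, H2b, H3 or H4). This gave 76 of 36856 genes. A further 22 pseudogenes match the prefixes and were not members. Of the 76 members, 44 were placed with the replication-dependent histones, 8 with the replacement histones, 12 with germline types and 9 with copies of replacement genes, while 3 could not be placed. The 9 RNA sequencing libraries form 3 groups of 3. Control cells were untreated and kept in normal growth medium. ESW cells received energized structured water and CW cells received control water, each at a dilution of 0.01 for 72 h in medium renewed every 24 h. For Control, the culture time and the renewal of the medium are not stated. In comparisons with Control, a difference in these cannot be told apart from the water. All groups are wild type and are the same clonal line, which limits how far the values stand for heart muscle.

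Replication-dependent histone genes lie in clusters, mostly lack introns and are expressed in S phase, when new DNA needs new nucleosomes. Their mRNAs end in a stem-loop in place of a poly(A) tail. The stem-loop is bound by SLBP, and the mRNA is cut with the help of the U7 small nuclear ribonucleoprotein. Replacement histones, such as H3.3, H2A.Z, H2A.X and H1.0, are made throughout the cell cycle, mostly from polyadenylated mRNAs, and are placed in chromatin by dedicated chaperones. How RNA was selected before sequencing is not given in these sources, and an mRNA without a poly(A) tail is largely lost where poly(A) selection is used.

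The promoters of the genes on which the comparisons turn are given first. They come from RefSeq promoter windows of the rat assembly GRCr8, which held 72 of the 76 members. Capitals mark CCAAT, the octamer ATTTGCAT and TATAAA on either strand, the motifs for which histone promoters are known. Each sequence is written 5′ to 3′ on the strand named and ends at the base before the start of transcription used for its window. Genes with several annotated transcripts may have other starts. The annotated span of Hist1h2an also extends over the interval shown for it. Hist1h2an (H2A) and H2bcl2 (H2B) are transcribed away from each other, and the first sequence is the whole 174-base interval between their starts at chr17:41962517-41962690, plus strand.
Hist1h2an and H2bcl2: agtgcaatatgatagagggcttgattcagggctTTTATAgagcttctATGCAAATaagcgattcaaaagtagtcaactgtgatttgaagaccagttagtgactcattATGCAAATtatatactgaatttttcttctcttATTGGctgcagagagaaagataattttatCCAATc
It holds 2 octamers, 2 CCAAT and 1 TATAAA, and the TATAAA is on the strand of H2bcl2. The next sequences are the 120 bases before H3f3a (chr13:95076696-95076815, minus strand) and H3f3b (chr10:101757637-101757756, minus strand), the genes of H3.3, shown because they encode 1 protein from unlike promoters.
H3f3a: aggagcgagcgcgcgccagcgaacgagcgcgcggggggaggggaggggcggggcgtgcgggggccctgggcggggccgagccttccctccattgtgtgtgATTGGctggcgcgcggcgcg
H3f3b: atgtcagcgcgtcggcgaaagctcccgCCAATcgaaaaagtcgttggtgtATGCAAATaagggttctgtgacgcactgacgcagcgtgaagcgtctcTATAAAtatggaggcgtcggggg
H3f3b had CCAAT, the octamer and TATAAA in these bases, and H3f3a had a single CCAAT. Last are further replication-dependent genes described in the comparisons: Hist1h2bq (H2B, chr17:41869342-41869461, minus strand), H2ac18 (H2A, chr2:186497151-186497270, plus strand) and H3c13 (H3, chr17:41960010-41960129, minus strand).
Hist1h2bq: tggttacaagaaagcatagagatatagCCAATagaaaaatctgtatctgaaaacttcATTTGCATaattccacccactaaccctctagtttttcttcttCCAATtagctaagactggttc
H2ac18: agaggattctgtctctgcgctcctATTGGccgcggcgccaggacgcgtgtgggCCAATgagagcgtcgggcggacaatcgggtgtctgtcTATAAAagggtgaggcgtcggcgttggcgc
H3c13: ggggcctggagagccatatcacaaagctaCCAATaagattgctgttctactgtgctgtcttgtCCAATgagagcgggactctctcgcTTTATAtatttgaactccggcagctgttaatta

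In the 250 bases before the start, CCAAT was present for 38 of the 41 replication-dependent genes with a window (92.7%), against 34.0% of all 33469 windows. TATAAA was present for 22 of 41 (53.7%), against 12.9% of all windows. The octamer was present for 13 of 41 (31.7%), against 1.56% of all windows. It was found before 6 of 15 H2A and 7 of 15 H2B genes, and before 0 of the 4 H1, 3 H3 and 4 H4 genes with a window. The GC box GGGCGG showed another distribution, with 6 of 8 replacement genes (75.0%) and 10 of 41 replication-dependent genes (24.4%), against 30.5% of all windows. Both strands were searched in every case, and a motif is a match of letters and not a measured binding site. The median GC content of the windows was 42.8% for replication-dependent and 65.4% for replacement genes. H3f3a had 76.4% and H3f3b 50.4%. Of the replication-dependent genes, 33 lie on chromosome 17, 8 on chromosome 2 and 3 on chromosome 10. There were 8 pairs of an H2A and an H2B gene transcribed away from each other with 174 to 263 bases between the starts, 7 of them replication-dependent.

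The libraries held 26748673 to 48574618 reads, and 0.1471% to 0.1775% of them fell on histone genes. The label myoblast was checked against markers. Of 11 muscle precursor markers, 4 were under 1 CPM (read counts relative to the scaled library total) in every library, among them Myf5 with 2 reads in all, while the myogenic factor gene Myod1 had means of 8.09 to 10.0 CPM. Of 7 cardiomyocyte markers, 6 were under 1 CPM in every library. On the first principal component of all genes, Control replicate 1 lay at -10.93, within the ESW range of -28.73 to -8.79, and apart from Control replicates 2 and 3 at 7.08 and 12.33. On the second component Control replicate 1 lay at -22.93, Control replicates 2 and 3 at -6.52 and -9.83, and the ESW libraries at -0.81 to 15.34. There it was the library farthest from ESW. Each member called below against Control was also called without Control replicate 1. The 7 fibroblast markers summed to 73000 to 77900 CPM in Control, 87500 to 90800 with ESW and 74100 to 78100 with CW, and Col1a1, Col1a2 and Col3a1 rose in ESW against both other groups. These 3 collagen genes held most of the sum. The other 4 markers were not called against Control, and of them Thy1 rose against CW. Dcn had means of 9.27 CPM in Control, 9.56 with ESW and 10.5 with CW, and Pdgfra was under 1 CPM in every library. The part of the collagen difference in the results on histones was not tested.

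The replacement histones supplied most of the histone mRNA. Levels are compared between genes in TPM, which is scaled for transcript length. H3f3a had a mean of 1312 TPM over the 9 libraries and ranked 115 of 36856 genes. It was followed by H3f3b with 644.8 TPM, H2az1 (H2A.Z, a variant found at gene starts) with 512.3 and H1f0 (the linker histone H1.0, typical of resting and differentiated cells) with 233.3. H2aj (H2A.J, which accumulates in senescent cells) with 195.0 TPM and H2az2, the second H2A.Z gene, with 190.1 TPM were not separated, because their libraries overlapped. H2ax (H2A.X, phosphorylated next to DNA breaks) had 127.4 TPM. The lowest replacement gene was H1f10, a linker histone, with 48.22 TPM. The median of the 8 replacement genes was 214.158 TPM and that of the 44 replication-dependent genes 1.808 TPM.

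Among replication-dependent genes, 2 carried most of the reads. H1f2, which encodes the linker histone H1.2, had a mean of 71.66 TPM and 42.5% of all replication-dependent reads. Hist1h2bq (H2B) had 60.76 TPM and 19.3% of these reads. The next by TPM were the H2A genes Hist1h2an with 24.69, H2ac18 with 21.7 and Hist1h2af with 16.63, and the H3 genes H3c13 with 15.75 and H3c1 with 14.76. H2bc6 (H2B) had 13.67 TPM, H1f4 (linker histone H1.4) 3.864, and the H4 genes H4cl3 and H4cl1 2.337 and 2.181. At the other end, 19 of the 44 were under 1 TPM. The plot of levels shows this split, with H1f10 alone among the replacement genes below the highest replication-dependent genes.

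**Figure D1:**
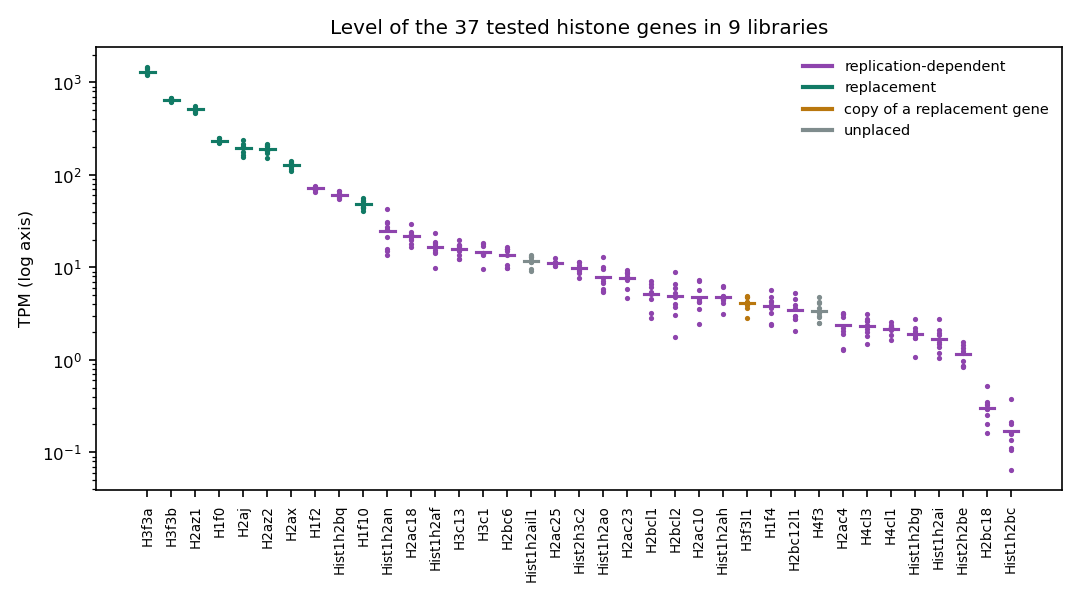
Level in TPM (log axis) of the 37 tested histone genes, ordered by mean; each point is 1 of 9 libraries, each line the mean, and colours give the class. The 7 highest genes are replacement histones, from H3f3a at 1312 TPM to H2ax at 127.4 TPM, and the lowest are replication-dependent.

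The replication-dependent share of histone TPM was 8.77% ± 0.188 in Control (SD, n = 3 in each group), against 8.44% ± 0.136 for ESW and 9.52% ± 0.257 for CW. The CW libraries lay at 9.33% to 9.81%, above all 6 others. Small nuclear, small nucleolar and related short RNAs, which also lack a poly(A) tail, moved with this share in CW. Their sum over 2181 genes was 20.8 to 24.0 CPM in Control, 18.8 to 22.6 with ESW and 27.1 to 40.0 with CW, and its part in the histone values was not tested. The 12 germline-type genes together reached at most 0.4139 CPM in a library, and 7 of them had no read. Of 8 germ cell markers, Ddx4, Prm1, Prm2, Tnp1, Tnp2 and Sycp3 had no read either. Dazl had 7 reads and Stra8 2 over all libraries together.

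A filter on low counts kept 14706 genes for testing, among them 37 members: 26 replication-dependent, all 8 replacement, 1 copy of a replacement gene and 2 unplaced. The 39 others each had at most 68 reads over the 9 libraries together, and 9 of them had none. They were not tested. Near-identical histone copies share reads that are divided by estimate. Estimated counts were whole numbers in all 9 libraries, within 0.001, for 16 of the 76 members, 9 of them without a read. Of the 8 replacement genes, 0 had whole-number counts in all libraries. Values of single genes, replication-dependent or replacement, carry this uncertainty.

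ESW against Control asks which histone mRNAs differ after treatment with the structured water. Hist1h2an, H4cl1 and H3f3a fell, and no other member was called. These 3 of 37 tested members (8.11%) compare with 8.04% of all tested genes called in this comparison, and with 3.28% called as lower. A member is called at an adjusted p below 0.05 in the quasi-likelihood test of edgeR, adjusted over all 14706 genes. Counted in either direction, the share of members called was near the background. All 3 calls were lower, so that the share called as lower was above 3.28%, on 3 genes only.

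Hist1h2an encodes a replication-dependent H2A. It had 4.08, 4.75 and 6.79 CPM in Control, 2.53, 2.42 and 2.43 with ESW and 3.45, 4.55 and 5.03 with CW. The 3 ESW libraries were lower than the 6 others and lay close together. Hist1h2an was 2.13-fold lower in ESW than in Control (log2 fold change -1.09, SE 0.18, edgeR adjusted p = 0.00133). The call was made in every alternative run, including each left-out library. The partner across the shared promoter interval printed above, H2bcl2, was at 0.367 to 1.08 CPM in Control and 0.214 to 0.628 in ESW, with overlapping groups (log2 fold change -0.59, SE 0.45, edgeR adjusted p = 0.468). The annotated span of Hist1h2an covers H2bcl2. All of the TPM of Hist1h2an, in every library, was assigned to a single transcript, whose own start is not given here.

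H4cl1, listed as an H4 gene, had 8.97, 10.1 and 9.36 CPM in Control, 8.13, 7.07 and 6.31 with ESW and 8.49, 8.64 and 8.92 with CW. The ESW libraries were the lowest of all 9. The log2 fold change was -0.40 (SE 0.10, edgeR adjusted p = 0.0165). Its transcript is 7885 bases long and its annotated span overlaps 6 other members, among them H1f2 and Hist1h2bq, so that reads of these genes may be divided among them. The call was lost with offsets for effective transcript length (adjusted p = 0.056), in limma on log2 TPM (0.195), and without Control replicate 2 (0.0821), ESW replicate 2 (0.0535) or ESW replicate 3 (0.106).

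H3f3a, the more abundant of the H3.3 genes, had 520, 536 and 553 CPM in Control, 495, 454 and 460 with ESW and 439, 431 and 469 with CW. All Control libraries were above all others. The log2 fold change for ESW was -0.19 (SE 0.04, edgeR adjusted p = 0.00902). H3f3b, which encodes the same protein, had 441, 441 and 405 CPM in Control and 409, 418 and 387 in ESW, with overlapping groups (log2 fold change -0.08, SE 0.04, edgeR adjusted p = 0.242). A single transcript held over 99% of the TPM of each of these genes. The share of H3f3a in the TPM of both was 68.3% ± 1.36 in Control, 66.9% ± 0.983 with ESW and 65.9% ± 1.14 with CW. The H3f3a call was lost without ESW replicate 3 (adjusted p = 0.0571) and in limma on log2 TPM (0.0636).

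**Figure D2:**
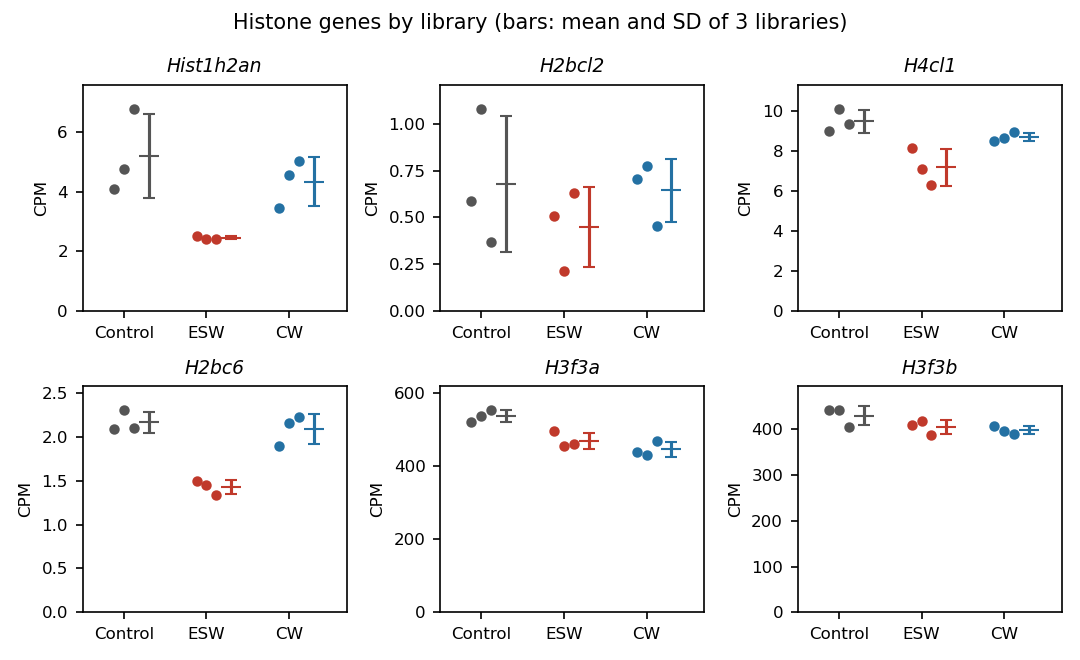
CPM of 6 histone genes in each library (points), with mean and SD of the 3 libraries of a group beside them; every axis starts at 0. Hist1h2an, H4cl1 and H2bc6 are lowest in the 3 ESW libraries, H3f3a is highest in the 3 Control libraries, and the groups of H2bcl2 overlap.

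The other replacement genes were close to Control and none passed the test. H2az1 had means of 192 ± 9.2 CPM in Control and 175 ± 7.69 in ESW (log2 fold change -0.13, adjusted p = 0.0761), and it was called in 4 of the alternatives, DESeq2 among them (adjusted p = 0.0481). H2az2 had 54.2 ± 0.898 and 49.4 ± 0.954 CPM without overlap (log2 fold change -0.13, adjusted p = 0.0721), and was called with length offsets (log2 fold change -0.29, adjusted p = 0.0286). H2az2 is spread over 5 transcripts, and the leading one held 60.39% ± 5.19 of its TPM in Control, 49.86% ± 11.99 with ESW and 54.01% ± 7.66 with CW. H1f0 had 254 ± 12.2 and 233 ± 6.63 CPM (log2 fold change -0.12, adjusted p = 0.0852). H2aj had log2 fold changes of -0.17 and H2ax of 0.05 and H1f10 of 0.14, with edgeR adjusted p from 0.257 to 0.56.

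Of the 26 replication-dependent genes tested, 19 had a log2 fold change below 0. Over all members this held for 28 of 37 (75.7%), against 52.6% of all tested genes. The median log2 fold change was -0.22 for replication-dependent genes, -0.13 for replacement genes and -0.01 for all tested genes. In 10 members (27.0%) the 3 ESW libraries were all below the 3 Control libraries, against 12.4% of all tested genes. The reverse held for 1 member (2.7%), H2ac18, against 13.3% of all tested genes. H2bc6 (H2B) was not called and had 2.09, 2.3 and 2.1 CPM in Control and 1.49, 1.45 and 1.34 in ESW (log2 fold change -0.60, SE 0.19, edgeR adjusted p = 0.0597). Among the alternatives, it was called with the filter of 1 CPM (edgeR adjusted p = 0.0481) and in limma on log2 TPM (adjusted p = 0.0158). Hist1h2af (H2A) had 1.97 ± 0.419 CPM in Control and 1.31 ± 0.298 in ESW (log2 fold change -0.58, SE 0.23, adjusted p = 0.131).

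Not all replication-dependent genes were low in ESW. H2ac18 had 2.88, 2.96 and 2.73 CPM in Control and 3.97, 3.46 and 3.60 in ESW, without overlap, but was not called (log2 fold change 0.36, SE 0.16, edgeR adjusted p = 0.191). H1f2 had 47.3, 50.5 and 44.3 CPM in Control and 51.4, 49.5 and 46.7 in ESW (log2 fold change 0.06, SE 0.05, adjusted p = 0.567). Hist1h2bq had 21.6, 21.3 and 20.3 CPM in Control and 22.4, 20.9 and 20.3 in ESW (log2 fold change 0.01, SE 0.06, adjusted p = 0.962). These abundant genes overlapped between the groups and set much of the total. H3c13 and H3c1 had log2 fold changes of -0.34 (adjusted p = 0.252) and -0.30 (0.398), H1f4 of -0.23 (0.74) and H4cl3 of 0.09 (0.92).

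**Figure D3:**
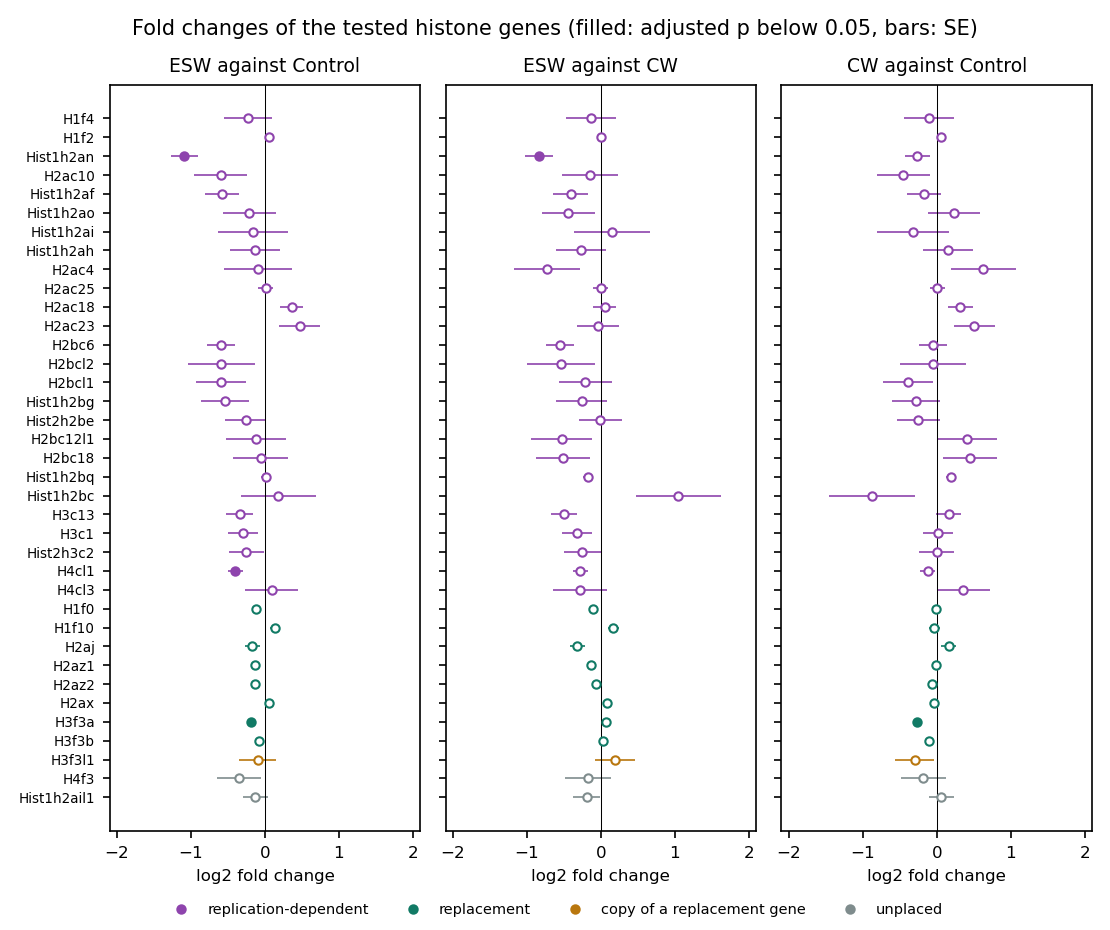
Log2 fold change (points) with SE (bars) of the 37 tested histone genes in the 3 comparisons, grouped by class and family; filled points have an adjusted p below 0.05 in edgeR. Filled points are Hist1h2an, H4cl1 and H3f3a for ESW against Control, Hist1h2an for ESW against CW and H3f3a for CW against Control.

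Summed over the 44 genes, replication-dependent histones had 114.8 ± 4.96 CPM in Control and 108.6 ± 5.24 in ESW (SD, n = 3 each), with overlapping libraries and a ratio of 0.946. In TPM the ratio was 0.866 and every ESW library was below every Control library. Without H1f2 and Hist1h2bq, a choice made after the values were seen, the sums were 46.39 ± 2.77 CPM in Control, 38.25 ± 1.96 with ESW and 45.61 ± 1.33 with CW, and every ESW library was below every other library. Replication-dependent H4 genes summed to 10.24 ± 0.554 CPM in Control and 7.888 ± 0.892 in ESW, most of it from H4cl1, and H3 genes to 5.876 ± 0.0625 and 4.72 ± 0.437. H2A genes summed to 21.37 ± 1.11 and 18.62 ± 1.01 CPM. Hist1h2an alone, at means of 5.2 and 2.46 CPM, differed by about as much as the whole H2A sum. The groups did not overlap for H4, H3 and H2A, whereas H2B (28.74 ± 1.06 and 27.16 ± 1.72 CPM) and H1 (48.54 ± 3.37 and 50.23 ± 2.31 CPM) overlapped. In TPM, H2B was also lower in every ESW library, with a ratio of 0.885. The replacement H3 genes summed to 965.3 ± 10.0 CPM in Control and 874.5 ± 28.7 in ESW without overlap. In bulk libraries, fewer cells in S phase and less histone mRNA per cell cannot be told apart.

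**Figure D4:**
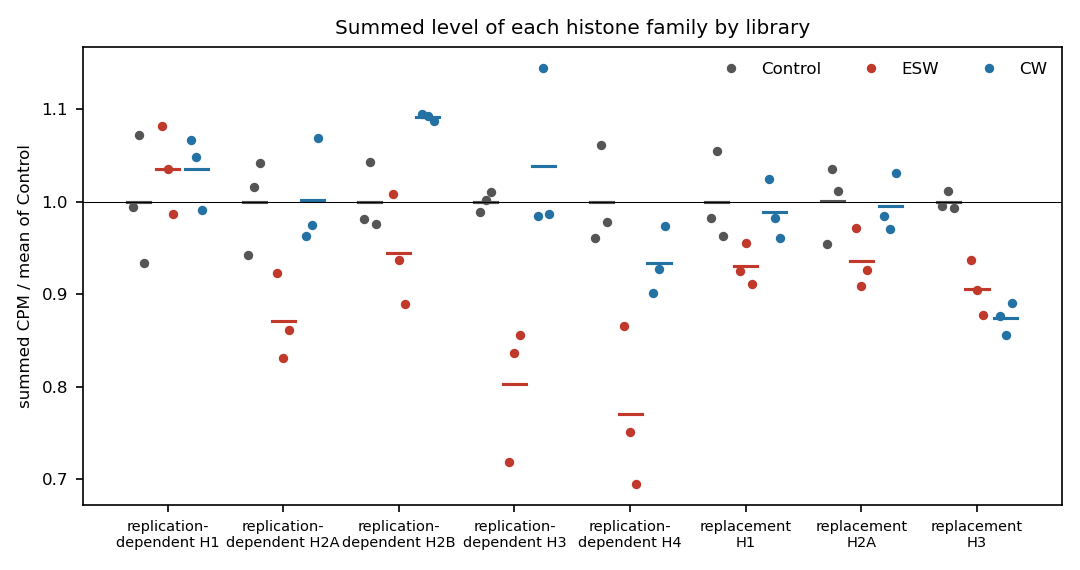
Summed CPM of each histone family divided by its Control mean, by library (points), with group means (lines); the vertical axis does not start at 0. The ESW points of replication-dependent H2A, H3 and H4 lie below all Control and CW points, and the ESW and CW points of replacement H3 lie below all Control points. The H2A and H4 sums include Hist1h2an and H4cl1, which were called as lower in ESW against Control.

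ESW against CW sets the structured water beside control water given in the same way. Hist1h2an fell here too and was the 1 member called of 37 (2.7%), against 8.14% of all tested genes called, and 3.99% called as lower. From the values given above, its ESW libraries did not overlap with CW, and it was 1.78-fold lower in ESW (log2 fold change -0.83, SE 0.19, edgeR adjusted p = 0.0106). The call was lost without ESW replicate 3 (adjusted p = 0.0539), CW replicate 2 (0.0513) or CW replicate 3 (0.0675) and in limma on log2 TPM (0.0576). Both comparisons use the same ESW libraries, so they are not independent.

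Among the members not called, H3c13 had 2.37, 2.69 and 2.44 CPM in CW and 1.77, 1.68 and 1.86 in ESW, without overlap (log2 fold change -0.50, SE 0.18, edgeR adjusted p = 0.0877). H2bc6 had 1.89, 2.15 and 2.22 CPM in CW, also above every ESW library (log2 fold change -0.55, SE 0.19, adjusted p = 0.0879). Both were called by limma on log2 TPM (adjusted p = 0.0448 for each). Hist1h2bq had 24.0, 23.2 and 24.7 CPM in CW, above all ESW and all Control libraries (log2 fold change -0.18, SE 0.06, adjusted p = 0.0802). For H4cl1 the log2 fold change was -0.28 (SE 0.10, adjusted p = 0.0963) without overlap, and it was called without ESW replicate 1 (adjusted p = 0.036).

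The median log2 fold change was -0.02 for replacement genes, -0.27 for replication-dependent genes and 0.00 for all tested genes. H2aj had 27.9, 29.4 and 35.1 CPM in CW and 29.0, 22.7 and 22.6 in ESW, where ESW replicate 1 lay apart from the other two (log2 fold change -0.32, SE 0.10, edgeR adjusted p = 0.0592). H2aj was called in 8 of the alternatives, among them without ESW replicate 1 (log2 fold change -0.45, adjusted p = 0.0115) and DESeq2 (adjusted p = 0.0442). H2az1 had a log2 fold change of -0.13 (adjusted p = 0.0894) and H1f0 of -0.11 (0.125), both lower without overlap. H2az1 was called in 3 of the alternatives: with only these groups (adjusted p = 0.0449), without Control replicate 1 (0.0433) and without ESW replicate 1 (0.0485). H1f10, at 15.6, 17.5 and 16.9 CPM in CW and 17.9, 18.7 and 19.7 in ESW, was higher without overlap but was not called (log2 fold change 0.17, adjusted p = 0.157). In TPM its groups overlapped, at 43.3 to 45.4 in CW and 40.4 to 56.9 in ESW. In all, 27 of 37 tested members (73.0%) had a log2 fold change below 0, against 50.5% of all tested genes. In 10 members (27.0%) every ESW library was below every CW library, against 13.4% of all tested genes, and in 2 (5.41%), H1f10 and H2ax, every one was above, against 14.9%. In TPM H2ax overlapped too, at 109.0 to 140.3 in ESW and 115.7 to 131.7 in CW.

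The summed replication-dependent level was 118.7 ± 0.692 CPM in CW and 108.6 ± 5.24 in ESW, without overlap and with a ratio of 0.915. In TPM the ratio was 0.846. H2A, H2B, H3 and H4 each summed lower in all ESW than in all CW libraries, with ratios of 0.87, 0.866, 0.774 and 0.825, and H1 had a ratio of 1.0 with overlap. The H2A sum includes Hist1h2an, at means of 4.34 CPM in CW and 2.46 in ESW. The sum over the 8 replacement genes was 1445.0 ± 38.4 CPM in ESW and 1450.0 ± 24.9 in CW, with overlap. In TPM every ESW library was below every CW library for this sum, with a ratio of 0.966. The short RNAs given above were likewise higher in every CW than in every ESW library.

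CW against Control asks which histone mRNAs differ after the control water. H3f3a fell, the 1 member called of 37 (2.7%), where 0.177% of all tested genes, 26 in number, were called, and 0.15% were called as lower. From the values given above, no CW library overlapped with Control (log2 fold change -0.26, SE 0.04, edgeR adjusted p = 0.00911). The effective length of H3f3a that scales its reads also differed, at 638.8, 615.9 and 626.0 bases in Control, 615.8, 619.7 and 599.5 with ESW and 593.5, 597.7 and 597.5 with CW. With offsets for this length the log2 fold change was -0.21 and the call was lost (adjusted p = 0.296), as it was in limma on log2 TPM (0.494) and without CW replicate 1 (0.0524) or CW replicate 2 (0.0866). In TPM the level of H3f3a was 1428.621 ± 37.581 in Control, 1265.22 ± 25.855 with ESW and 1242.972 ± 40.244 with CW, so that the Control libraries remained above the others. H3f3a was lower than Control in both water-treated groups, and ESW and CW overlapped (log2 fold change 0.07, SE 0.04, adjusted p = 0.32). These comparisons share the Control libraries.

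H3f3b had 407, 395 and 390 CPM in CW (log2 fold change -0.11, SE 0.04, edgeR adjusted p = 0.365). The transcribed pseudogene H3f3a-ps9, which could share reads with H3f3a, held 1.33% as many reads as H3f3a and had 7.31 ± 0.567 CPM in Control, 6.03 ± 0.549 with ESW and 6.16 ± 0.817 with CW, without a call. Hist1h2bq was higher in CW than in Control without overlap (log2 fold change 0.19, SE 0.06, adjusted p = 0.294), the 1 member of this kind (2.7%, against 7.13% of all tested genes). Besides H3f3a, H4cl1 was lower in all CW libraries (log2 fold change -0.12, adjusted p = 0.74), and these 2 members (5.41%) compare with 7.56%. The largest log2 fold changes among members of at least 1 CPM, apart from H3f3a, were those of H2ac23 (H2A) at 0.51 (adjusted p = 0.574), H2ac18 at 0.32 (0.561) and H3f3l1, a copy of an H3.3 gene, at -0.30 (0.783). A log2 fold change below 0 was found for 21 of 37 members (56.8%), against 50.2% of all tested genes, and the median was 0.01 for replication-dependent and -0.03 for replacement genes.

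Genes that serve histone supply were examined as lists. Of 30 genes for histone gene transcription and mRNA 3′ processing, 4 fell and 1 rose in ESW against Control. Slbp, the stem-loop binding protein, was at 60.8 ± 1.65 CPM in ESW and 70.7 ± 2.24 in Control (log2 fold change -0.22, SE 0.04, edgeR adjusted p = 0.00408). Npat, the S-phase activator of histone gene clusters, had a log2 fold change of -0.22 (adjusted p = 0.0355), and Ncbp2, the small cap-binding subunit, of -0.21 (0.00527). Mean CPM in Control, ESW and CW was 29.8, 25.6 and 25.8 for Npat and 70.0, 60.5 and 64.9 for Ncbp2. Slbp had 65.1 CPM with CW. Cpsf1, a subunit of the cleavage complex, rose by 0.15 (0.0373). These 5 of 30 (16.7%, with 13.3% lower) compare with 8.04% of all tested genes called and 3.28% called as lower, and DESeq2 called 7. Against CW, edgeR called Sympk of this list, the cleavage scaffold symplekin (log2 fold change 0.16, adjusted p = 0.0174), and DESeq2 called Sympk and Smg1. The edgeR share was 3.33%, against 8.14% of all tested genes. The list's median log2 fold change was -0.02 and -0.01 in these comparisons, near that of all genes.

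Of 30 tested histone chaperone genes, Nasp, the chaperone of soluble H3 and H4, fell in ESW against Control (log2 fold change -0.24, SE 0.05, edgeR adjusted p = 0.00581), and Ipo4, an importin that carries H3 and H4, rose (0.15, adjusted p = 0.0416). The share called, 6.67%, was near the 8.04% of all tested genes. Against CW, Ubn2 fell (log2 fold change -0.27, adjusted p = 0.0179) and Cabin1 rose (0.15, 0.0346), both partners of the H3.3 chaperone HIRA. Here too 6.67% of the list were called, against 8.14% of all tested genes. Of 40 S-phase genes, 5 fell and none rose against Control (12.5%, against 3.28% of all tested genes called as lower). An unadjusted p below 0.05 was found for 19 (47.5%, against 22.8% of all tested genes), and DESeq2 also called 5. The called genes included the replication clamp loader subunit Rfc4 (log2 fold change -0.35, adjusted p = 0.00451), cyclin E2 (Ccne2, -0.32, 0.0183) and the primase subunit Prim1 (-0.24, 0.00512). Mean CPM in Control, ESW and CW was 37.2, 29.3 and 34.8 for Rfc4, 22.9, 18.3 and 18.5 for Ccne2 and 73.0, 61.5 and 66.6 for Prim1. Against CW, Rfc4 (-0.25, 0.0362) and Rfc3 (-0.21, 0.0249) fell. They make up 5.0% of the list, against 8.14% of all tested genes called and 3.99% called as lower. The list's median was -0.06 against Control and -0.02 against CW, and it was -0.05 in CW against Control. The list summed to 2380 to 2460 CPM in Control, 2320 to 2350 with ESW and 2330 with CW, so that both water-treated groups lay below Control.

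In CW against Control, edgeR called 0 genes of these lists, with 30, 30 and 40 genes tested. At an unadjusted p below 0.05 there were 4 of the processing (13.3%), 9 of the chaperone (30.0%) and 5 of the S-phase genes (12.5%). These shares compare with 9.87% of all tested genes. DESeq2 called 1 gene of the lists, the H2A.Z chaperone Anp32e. Histone genes with other symbols were not called in any comparison by edgeR or DESeq2. Cenpa, the centromeric H3 variant, had 47.1 ± 3.56 CPM in Control, 42.4 ± 1.61 with ESW and 47.6 ± 0.982 with CW (edgeR adjusted p = 0.095 against Control and 0.0714 against CW, below 0.05 unadjusted in both). Macroh2a1 had 71.6 ± 1.37, 70.8 ± 1.38 and 68.7 ± 2.3 CPM in the same order, and Macroh2a2 21.2 ± 0.774, 21.8 ± 0.876 and 21.1 ± 1.05.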

How the data were processed

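RNA was sequenced from 9 H9c2(2-1) samples, 3 per group. Per the submitters' processing notes, the authors used Salmon 1.10.3 and DESeq2 (version not named). Per the file headers, the deposited tables hold 1 row per transcript with an estimated count, a TPM value and the effective length, another kind of value in bases. The authors' estimated counts are fractional, because Salmon divides reads that fit several transcripts. The authors' deposited TPM values are scaled for length and library total. The effective length given by Salmon depends on more than fragment lengths, since 29885 transcripts have one longer than their length in at least 1 library. Which further corrections entered was not examined. The genome build, annotation release, use of strand and RNA selection are not given in the sources used here.

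All 114122 transcripts were matched by accession to RefSeq genes of GRCr8. For each of 36856 genes the estimated counts were added up and rounded. The 14706 genes passing filterByExpr were tested in R 4.3.3 with the quasi-likelihood test of edgeR 4.0.16, TMM scaling and 1 mean per group over all 9 libraries (6 residual degrees of freedom). P-values were adjusted by Benjamini-Hochberg over all genes and called below 0.05. CPM values are relative to the TMM-scaled library total. Sums over members have no test. The fit was tested on simulated data. Since separate cultures are not stated in the labels, p-values reflect the spread of these samples alone, which may be technical. The total counts, 26748673 to 48574618, limit the precision for low genes.

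Members and lists were chosen with earlier results of these data known. The rule named members called in any comparison, the 2 highest by TPM of each family and class, per comparison the 3 largest changes of at least 1 CPM, and the H2A.Z, H2A.X, H3.3 and H1.0 genes. Other members are named for their position or after their values were seen. Alternatives were DESeq2 size factors, no filter, at least 1 CPM in 3 libraries, the test of DESeq2 1.42.0, limma-voom and limma 3.58.1 on log2(TPM + 0.1), offsets for average effective transcript length, only the groups compared, a replicate block and leaving out each library. Motifs were searched in 250 bases before the start; H2bc6, H3c1, H3f3al3 and H4c14 had no window. One gene of the S-phase list is not reported here by name.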

Additional observations from a re-analysis of the deposited data

How the results depend on the processing

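No direction of a called histone gene changed under the alternatives. The histone count of 3 for ESW against Control was 5 with the filter of 1 CPM and 1 to 4 with a library left out. The count of 1 for ESW against CW was 2 without a filter, with the 1 CPM filter, in DESeq2 and in limma on log2 TPM, 3 with only these groups and 0 to 4 with a library left out. The count of 1 for CW against Control was 0 with length offsets and in limma on log2 TPM, and 0 to 1 with a library left out. Over all genes, ESW against Control had 1183 calls, 440 with length offsets, 149 in limma on log2 TPM and 394 to 1544 with a library left out. ESW against CW had 1197, 18 in limma on log2 TPM and 314 to 1486 with a library left out. CW against Control had 26, 273 without a filter, 1 with length offsets, 16 with only these groups, 0 in limma on log2 TPM, 78 in DESeq2 and 5 to 51 with a library left out. The cause of these shifts was not tested. Of 58 values of named members not called, 16 changed sign in at least 1 alternative, and 0 of these changes was called.

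The summed ratio of ESW over CW for all members was 0.99, and 0.954 in TPM, 0.95 on the plain library total. For replication-dependent genes, ESW over Control was 0.946, and 0.866 in TPM, 0.881 without H1f2 and 0.825 without H1f2 and Hist1h2bq. ESW over CW was 0.915, and 0.846, 0.854 and 0.839 in the same order. CW over Control was 1.034, and 0.983 without both genes. For replacement genes, ESW over CW was 0.996, and 0.956 on the plain library total. Without H3f3a, CW over Control was 0.965 in place of 0.92, and 0.972 in place of 0.928 over all members. With a library left out, each ratio stayed within its error.

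With the replicate number as a block, the histone counts were 3 for ESW against Control, 1 for ESW against CW and 1 for the remaining comparison, and those over all genes 971, 949 and 25. Same-numbered libraries of unlike groups had correlations of -0.118 to 0.04, and other pairs between groups had -0.041 to 0.087. With 3 libraries per group, these values cannot show whether equal numbers mark a shared preparation. Depth limits the 39 members not tested.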
